A study of Mus musculus with 24 samples.

Results

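Bone marrow-derived macrophages of the mouse were compared after 12 and after 3 days of co-culture. The comparison took the 3 libraries whose labels give bone marrow-derived macrophages, day 12 and co-culture, and the 3 with day 3 and co-culture, which are 6 of the 24 RNA-seq libraries of the series. The other libraries are bone marrow-derived macrophages at day 0 without co-culture and at day 6 with it, and macrophages made from induced pluripotent stem cells (iPSC-derived) on the same days, each with n = 3. Both groups compared here were in co-culture, and the labels do not name the cells they were kept with, the mouse strain or how the macrophages were taken out of the co-culture. The series calls the 3 samples of a time point independent replicates. Macrophages kept for the same days without co-culture were not analysed here, so time in culture and time in co-culture cannot be told apart. Libraries were made by the SMART-seq v2 method, which amplifies cDNA from a small amount of RNA (2 ng per sample), and p-values measure the spread between libraries only.

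Macrophages grown from bone marrow with a growth factor are a common laboratory model of the phagocytes that descend from monocytes. Microglia, the macrophages of the brain, have another origin in the embryo and carry a characteristic set of genes, among them Cx3cr1, P2ry12, Tmem119 and Fcrls, that depends on signals from the brain such as TGF-beta. Macrophages are also known to change their energy metabolism with their state, using more glycolysis when activated by inflammatory stimuli, and resident macrophages can maintain themselves by dividing in place. The title of the series names a model of tissue-resident macrophage differentiation, and day 12 against day 3 asks what changed while co-culture went on.

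The 6 libraries held 8751442 to 10070221 counts in genes, with 17543 to 18321 genes detected in each. Levels are given as CPM (each count relative to its library total, on the usual CPM scale, and libraries scaled to each other by the TMM method), and changes as log2 fold changes of day 12 against day 3 with a standard error (SE). Genes were called at an adjusted p below 0.05 in edgeR's quasi-likelihood test over 15000 genes, and "rose" and "fell" are used only of called genes. The defining macrophage genes were present at both times: the summed level of 21 general macrophage genes was 45420 to 49560 CPM at day 3 and 35660 to 40470 CPM at day 12, with 0 of them missing. Mitochondrially encoded genes took 2.19% to 3.37% of the counts at day 3 and 4.16% to 5.18% at day 12.

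In all, 1267 of the 15000 genes tested (8.45%) were called, 630 higher at day 12 (4.2%) and 637 lower (4.25%). By comparison, the libraries of the groups did not overlap for 2539 genes higher at day 12 (16.9%) and 2660 lower (17.7%). Of the called genes, 411 rose and 350 fell at least 2-fold, and 111 rose and 67 fell at least 8-fold. The median log2 fold change over all tested genes was 0.0057. On a principal component analysis of the 12 bone marrow-derived libraries the second component, with 16.4% of the variance, put the days of co-culture in order: day 3 lay at -58.6 to -54.2, day 6 at -7.58 to -3.39 and day 12 at 49.2 to 54.3. Libraries of 1 group correlated at 0.963 to 0.969 at day 3 and 0.944 to 0.955 at day 12 (Pearson's r over genes, on log2 CPM), against 0.913 to 0.925 between the groups. Fitted on the 6 libraries alone the test called 2751 genes, and without day 3 replicate 3 it called 790. With no scaling factors 790 genes were higher and 505 lower, a split of 61% higher against 49.7%.

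**Figure D1:**
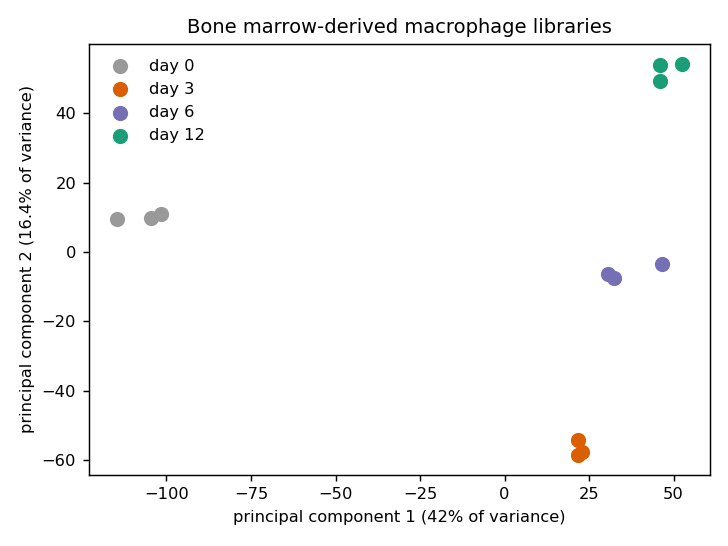
Principal components 1 and 2 of log2 CPM in the 12 bone marrow-derived libraries, 1 point per library. Day 3, day 6 and day 12 stand apart on the second component, with day 6 (-7.58 to -3.39) between day 3 (-58.6 to -54.2) and day 12 (49.2 to 54.3).

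**Figure D2:**
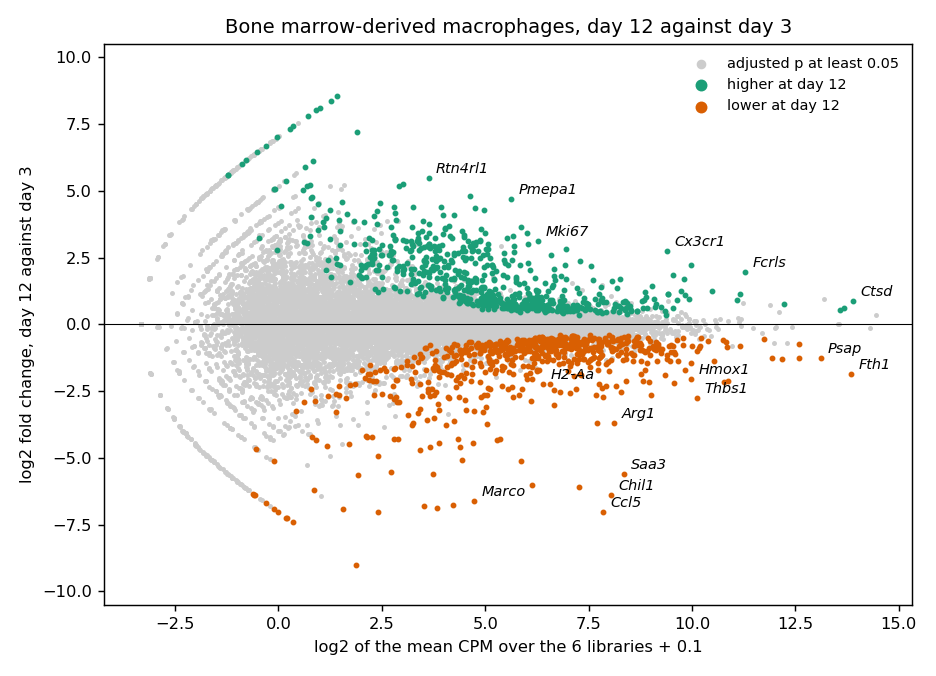
Log2 fold change of day 12 against day 3 for each tested gene, against the log2 of its mean CPM over the 6 libraries plus 0.1, with genes at an adjusted p below 0.05 in colour. The calls are 630 higher and 637 lower, and the labelled genes include Ccl5 (-7.03), Saa3 (-5.61), Pmepa1 (4.69) and Mki67 (3.11).

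Genes of cell division rose. Of 41 tested mitosis genes 38 rose and 0 fell, with a median log2 fold change of 2.75, and of 40 DNA replication genes 25 rose and 0 fell, with a median of 1.6. The 3 mitosis genes that did not pass were Cenpa (0.58, adjusted p = 0.12), Cenpk (2.25, adjusted p = 0.057) and Mybl2 (2.01, adjusted p = 0.14). The summed level of the mitosis genes was 328 to 378 CPM in the day 3 libraries and 1939 to 2136 CPM in the day 12 libraries. Before co-culture, at day 0, it was 526 to 591 CPM, so that day 3 lay below day 0. Bulk RNA cannot tell more dividing cells apart from more of these transcripts in each cell.

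Mki67, the gene of the proliferation antigen Ki-67 (chromosome 7, 135689788 to 135716379 in GRCm38), stood at 14.6, 19.8 and 14.1 CPM at day 3 and at 125, 127 and 167 CPM at day 12 (log2 fold change 3.11 ± 0.37 SE, adjusted p = 6.3e-06). Top2a, the DNA topoisomerase that untangles chromosomes before they separate, was 22.6, 37.7 and 31.3 CPM and then 209, 200 and 238 CPM (2.82 ± 0.39, adjusted p = 5.7e-05). The groups did not overlap for either gene, and the lowest day 12 library was over 5 times the highest day 3 library. Cenpe, a kinetochore motor, rose from 5.54 ± 0.61 to 46.2 ± 4.1 CPM (SD, n = 3) and Aurkb, a mitotic kinase, from 8.83 ± 0.92 to 49.3 ± 6.8 CPM. Tpx2, a spindle assembly factor, rose by 2.21 ± 0.29 log2 units. Knl1 (4.39 ± 0.60), a kinetochore scaffold, and Pbk (4.29 ± 0.60), a mitotic kinase, were among the 12 largest rises of genes with a mean of at least 20 CPM at day 12. The replicative helicase genes rose together, Mcm5 from 14.3 ± 2.4 to 116 ± 9.4 CPM (3.02 ± 0.37), Mcm2 by 2.70 ± 0.22, Mcm7 by 2.42 ± 0.30 and Mcm6 by 2.21 ± 0.24. Pole, the catalytic subunit of a replicative DNA polymerase, rose from 2.53 ± 1.99 to 32.1 ± 3.55 CPM (3.67 ± 0.77). The cyclin genes Ccnd1 (2.19 ± 0.31) and Ccnd2 (2.5 ± 0.41), which act at entry into the cycle, rose as well, while the cell cycle inhibitor gene Cdkn1a stood at 184 ± 32 and 208 ± 14.6 CPM (0.17 ± 0.17, adjusted p = 0.63).

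Promoters of cell cycle genes are known for 2 short elements, the CCAAT box and the CHR, and 4 mitosis genes that moved together are shown for them. They were chosen after their values and letters were seen. The lines give the 250 bases before each gene's start from RefSeq (GRCm38.p6), 5′ to 3′ on the gene's strand, with each CCAAT box (CCAAT) and each CHR (TTTGAA), searched on both strands, in capitals. They lie on the minus strand at chr9:70421555-70421804 (Ccnb2), chr10:69352913-69353162 (Cdk1), chr11:99024190-99024439 (Top2a) and chr7:135716380-135716629 (Mki67).
Ccnb2: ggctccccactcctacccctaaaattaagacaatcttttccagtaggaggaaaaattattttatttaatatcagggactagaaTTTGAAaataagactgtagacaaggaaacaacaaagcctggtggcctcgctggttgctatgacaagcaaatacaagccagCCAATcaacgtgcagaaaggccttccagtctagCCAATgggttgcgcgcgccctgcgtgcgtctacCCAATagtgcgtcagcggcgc
Cdk1: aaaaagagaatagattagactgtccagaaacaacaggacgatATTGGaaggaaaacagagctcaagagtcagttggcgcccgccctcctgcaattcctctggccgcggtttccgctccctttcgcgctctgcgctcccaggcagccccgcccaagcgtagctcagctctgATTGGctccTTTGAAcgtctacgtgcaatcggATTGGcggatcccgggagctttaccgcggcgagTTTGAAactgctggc
Top2a: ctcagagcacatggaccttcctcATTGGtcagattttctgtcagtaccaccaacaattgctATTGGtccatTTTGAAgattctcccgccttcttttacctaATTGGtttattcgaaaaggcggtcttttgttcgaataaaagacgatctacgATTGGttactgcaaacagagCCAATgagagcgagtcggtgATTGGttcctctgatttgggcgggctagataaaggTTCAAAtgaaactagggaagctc
Mki67: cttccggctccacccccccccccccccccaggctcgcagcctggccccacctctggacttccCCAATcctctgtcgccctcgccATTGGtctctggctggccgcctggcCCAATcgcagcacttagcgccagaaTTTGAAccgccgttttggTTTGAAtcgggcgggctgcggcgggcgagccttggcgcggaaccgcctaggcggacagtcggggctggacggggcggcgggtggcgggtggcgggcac

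Ccnb2, a B-type cyclin gene, rose by 3.12 ± 0.46 log2 units and holds 3 CCAAT boxes, at -87, -54 and -21 from the start, 33 bases apart. Cdk1, the kinase that B-type cyclins activate, rose by 1.71 ± 0.29 and holds 3 CCAAT boxes and 2 CHR matches. Top2a holds 6 CCAAT boxes and 2 CHR matches, and Mki67 holds 3 and 2. Among all 27025 RefSeq promoters 34.5% hold CCAAT and 16.3% hold TTTGAA within the same length. Among the 10618 promoters of tested genes these shares are 36.1% and 10.6%. Only 32 of the 41 tested mitosis genes had a promoter in the table, under 80%, so a share over that list is void and is not given. Of 33 DNA replication promoters (of 40 members) 19 held CCAAT, or 57.6%, and 4 held TTTGAA, or 12.1%. These matches describe letters and are not shown to be bound.

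Microglial genes rose more often than they fell. Of 30 microglia signature genes 14 rose and 1 fell, with a median log2 fold change of 1.07, and their summed level went from 10280 to 12290 CPM at day 3 to 18210 to 18470 CPM at day 12. At day 0, before co-culture, this sum was 13590 to 14200 CPM, above all day 3 libraries and below all day 12 libraries. Cx3cr1, the receptor for the neuronal chemokine fractalkine (chromosome 9, 119901616 to 120068283), stood at 157, 149 and 218 CPM at day 3, at 670, 658 and 706 CPM at day 6 and at 1100, 1146 and 1251 CPM at day 12 (2.74 ± 0.39, adjusted p = 1.2e-04). Each later day lay above the earlier one with no overlap. Fcrls, an Fc receptor-like gene of microglia, rose from 905, 966 and 1178 CPM to 3788, 4203 and 3870 CPM (1.96 ± 0.26). P2ry12, the purine receptor of microglial processes, rose from 42.0, 30.1 and 35.6 CPM to 97.2, 92.4 and 86.6 CPM (1.36 ± 0.26). Tmem119, a membrane protein of microglia, was 47.1, 45.8 and 55.7 CPM at day 3, 52.6, 57.7 and 62.5 CPM at day 6 and 162, 144 and 162 CPM at day 12 (1.65 ± 0.38, adjusted p = 0.0069), so that its day 6 libraries lay near those of day 3. Rtn4rl1, a Nogo receptor homologue, rose from 1.09, 0.396 and 0.112 CPM to 27, 25.7 and 19.6 CPM (5.46 ± 0.55), the largest called rise among genes with a mean of at least 20 CPM at day 12.

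Ltc4s, the leukotriene C4 synthase gene, rose by 3.02 ± 0.42, Golm1, a Golgi membrane protein gene, by 1.98 ± 0.25, and Bhlhe41, a transcription factor gene of resident macrophages, by 1.35 ± 0.20. The phosphatidylserine bridging ligands Gas6 (1.25 ± 0.19) and Pros1 (1.20 ± 0.19), which link dying cells to phagocyte receptors, rose. Their receptor gene Mertk stood at 296 ± 40 and 204 ± 8.87 CPM (-0.53 ± 0.18, adjusted p = 0.062) and was called lower with DESeq2 (0.0419), with the fit on the 6 libraries alone (0.00491) and with no filter (0.0263). Selplg, the P-selectin ligand gene, was the signature gene that fell, from 397 ± 19.3 to 239 ± 8.07 CPM (-0.73 ± 0.15). Other signature genes did not pass. Csf1r, the receptor for the macrophage growth factor CSF1, stood at 4313 ± 641 and 3881 ± 227 CPM (-0.15 ± 0.18), whereas Olfml3, a secreted microglial protein gene, stood at 147 ± 15 and 126 ± 18 CPM (-0.22 ± 0.30). Sall1, the transcription factor that defines microglia, was at 0.547, 0.198 and 1.34 CPM at day 3 and 0.802, 1.09 and 0.0900 CPM at day 12, and Siglech, a microglial lectin gene, had mean levels of 0.333 and 0.434 CPM. Trem2 (0.45 ± 0.19, adjusted p = 0.17), Apoe (0.35 ± 0.18, adjusted p = 0.26) and C1qa (0.10 ± 0.19, adjusted p = 0.83), which serve lipid sensing, lipid transport and complement, did not pass either. In edgeR's fit on the 6 libraries alone Trem2 (adjusted p = 0.0153) and Apoe (0.0287) were called higher. Gpr34, a lysophospholipid receptor gene, was 68.9 ± 15.7 and 203 ± 22 CPM (1.56 ± 0.53, adjusted p = 0.078) and did pass with DESeq2 and in the fit on the 6 libraries alone. Border-associated macrophage genes, which mark macrophages at the borders of the brain, rose in 5 of 16 with 0 falls, and in 3 without any 1 of the 6 libraries. Stab1, a scavenger receptor gene of that list, rose from 854 ± 36 to 2007 ± 192 CPM (1.23 ± 0.23). Mrc1, the mannose receptor gene, rose by 1.09 ± 0.33, a call lost without each of the 6 libraries in turn (adjusted p 0.0781 to 0.174).

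TGF-beta response genes moved both ways, and most were not called. Of 23 TGF-beta response genes 4 rose (Tgfbr1, Tgfbr2, Ski and Pmepa1) and 2 fell (Tgif1 and Tgfbi). The other 17 were not called, and the list's median log2 fold change was 0.19. Pmepa1, a TGF-beta-induced feedback gene (chromosome 2, 173224458 to 173276533), stood at 4.04, 2.97 and 4.02 CPM at day 3, 23.3, 25.3 and 21.6 CPM at day 6 and 80.1, 90.8 and 114 CPM at day 12 (4.69 ± 0.41, adjusted p = 4.0e-08). Both receptor genes rose, Tgfbr1 from 233 ± 45 to 433 ± 53 CPM (0.89 ± 0.16) and Tgfbr2 from 312 ± 36.5 to 628 ± 64.1 CPM (1.01 ± 0.18). The corepressor gene Tgif1 fell by 0.90 ± 0.20 and Tgfbi by 1.37. Bmp2, a ligand of the same superfamily, rose from 0.626 ± 0.544 to 13 ± 1.6 CPM (4.39 ± 0.63), against 13.8 CPM on average at day 0. Slco4a1, an organic anion transporter gene, rose from 1.65 ± 0.57 to 47.4 ± 15.9 CPM (4.82 ± 1.04, adjusted p = 0.0058).

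Col4a2 (4.37 ± 0.53), Nid1 (4.11 ± 0.56), Nid2 (3.88 ± 0.78) and Col4a1 (3.65 ± 0.49), which encode type IV collagen chains and the linker proteins nidogen 1 and 2 of the basement membrane, were all among the 12 largest rises by the same limit on the mean. They were named by their size and not from a list. Col4a1 stood at 13.8, 5.24 and 6.59 CPM at day 3, 66.1, 139 and 104 CPM at day 6 and 143, 102 and 76.1 CPM at day 12, so that days 6 and 12 overlapped and both lay above day 3. The junction gene Jam2 rose by 4.09 ± 1.19, a call lost without each of the 6 libraries in turn (adjusted p 0.0533 to 0.155). Fibroblast genes moved with these genes. The summed level of 12 fibroblast markers was 20.3 to 35.0 CPM at day 3 and 124 to 219 CPM at day 12, with 2 of them at 0 at day 3 and 1 at day 12. Their part in the rise of these collagen and nidogen genes was not tested. Of 11 tested fibroblast genes 3 rose and 0 fell: the collagen gene Col1a1 (3.75 ± 1.05), from 0, 4.35 and 0.558 CPM to 27.4, 17.9 and 23.6 CPM, Dcn (3.11 ± 0.83) and Postn, for which the day 3 libraries held 0 counts (at least 43.1-fold higher at day 12, with the floor set at 3 counts over the group). With 1 library left out the number of fibroblast genes called was 0 or 1. It was 0 without day 3 replicate 3 or day 12 replicate 3, and Col1a1 had an adjusted p of 0.149 and 0.0737 there. Col1a1, Dcn and Postn all lost their calls without day 3 replicate 1 as well (adjusted p 0.0672 to 0.125). The imprinted genes Igf2, Peg3 and Mest, of 14 fetal and imprinted genes, rose and 0 fell. Peg3 went from 9.16 ± 0.41 to 35.3 ± 6.5 CPM (1.94 ± 0.35), and without day 3 replicate 3 it was the only 1 of the 3 still called, Igf2 having an adjusted p of 0.0569.

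The 12 largest falls without overlap among genes with a mean of at least 20 CPM at day 3 encode proteins of several kinds. Ccl5, a T cell-attracting chemokine (chromosome 11, 83525778 to 83530518), stood at 401, 557 and 406 CPM at day 3, 30.4, 30.5 and 25.6 CPM at day 6 and 3.81, 2.48 and 4.05 CPM at day 12 (-7.03 ± 0.57, adjusted p = 1.1e-07). Saa3, an acute phase serum amyloid gene (chromosome 7, 46711998 to 46715676), stood at 564, 836 and 508 CPM, then 82.5, 83.6 and 65.8 CPM, then 16.1, 10.8 and 12.1 CPM (-5.61 ± 0.32, adjusted p = 8.6e-11). Both genes fell again between day 6 and day 12, and no library of a later day reached an earlier one. At day 0, before co-culture, their mean levels were 1.48 CPM for Ccl5 and 0.275 CPM for Saa3. Chil1, a chitinase-like secreted protein gene, fell from 518 ± 27.5 to 6.14 ± 1.97 CPM (-6.40 ± 0.53). The protease inhibitor gene Slpi (-6.87 ± 1.02), the haptoglobin gene Hp (-6.02 ± 0.83) and the siderophore-binding gene Lcn2 (-5.62 ± 1.26) fell, and each had a mean under 3 CPM at day 12. Marco, a scavenger receptor gene for particles and bacteria, fell from 36.3, 65.6 and 55 CPM to 0.601, 0.892 and 0.0900 CPM (-6.62 ± 0.91). The myeloid receptor gene Tarm1 (-6.76 ± 0.87), the mast cell-expressed membrane protein gene Mcemp1 (-6.78 ± 1.18), the dicarboxylate transporter gene Slc13a3 (-6.11 ± 0.88), the phosphatase gene Acp5 (-5.10 ± 0.44) and the coagulation factor gene F10 (-5.08 ± 0.77) complete these 12. Slc13a3 varied at day 3 with 141, 442 and 319 CPM, all above its 3.41 to 6.25 CPM at day 12.

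**Figure D3:**
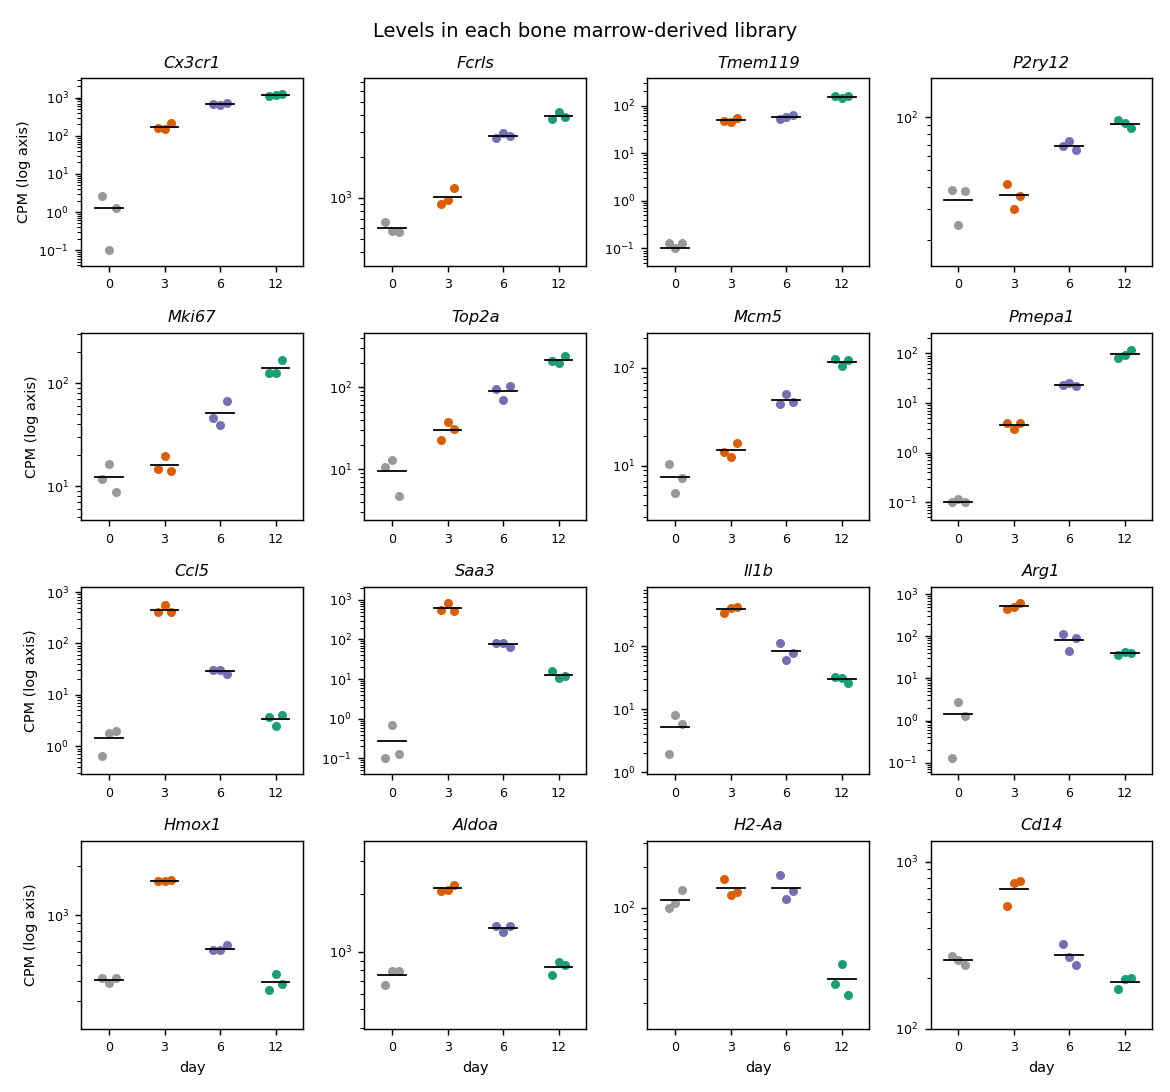
CPM of 16 genes in each bone marrow-derived library by day, on log axes that differ between panels, with 1 point per library, a bar at the mean and values under 0.1 CPM drawn at 0.1. Cx3cr1, Fcrls, Mki67, Top2a, Mcm5 and Pmepa1 lie higher at each later day of co-culture, and Ccl5, Saa3 and Il1b lie highest at day 3.

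Some inflammatory genes fell and a few rose. Of 32 inflammatory NF-kB target genes 10 fell and 2 rose (Tnf and Ccl4), with a median of -0.89, and of 17 IL-1 family and inflammasome genes 7 fell and 0 rose, with a median of -1.13. Il1b, the secreted pyrogenic cytokine (chromosome 2, 129364570 to 129371139), stood at 344, 402 and 420 CPM at day 3, 115, 61.3 and 78.1 CPM at day 6 and 32.8, 31.6 and 25.9 CPM at day 12 (-3.69 ± 0.89, adjusted p = 0.013), and its call was lost without each day 12 library in turn (adjusted p 0.055 to 0.0699). The receptor antagonist gene Il1rn fell from 122 ± 10 to 16.8 ± 5.2 CPM (-2.86 ± 0.43) and the decoy gene Il18bp from 377 ± 68 to 72.7 ± 12 CPM (-2.38 ± 0.33). Genes which block IL-1 and IL-18 thus fell along with Il1a (-3.19 ± 0.69) and Casp1 (-0.81 ± 0.19). Casp1 is the gene of the protease that matures IL-1 beta and IL-18. Sod2, a mitochondrial superoxide dismutase gene, fell from 352 ± 39 to 75.7 ± 14.8 CPM (-2.22 ± 0.18, adjusted p = 3.1e-08) and the apoptosis inhibitor gene Birc3 by 1.46 ± 0.19. Ptgs2, the inducible cyclooxygenase gene, had 204 counts over the day 3 libraries and 0 over the day 12 libraries (at least 74.5-fold lower, against the same floor). Tnf went the other way, from 18.5, 20.9 and 24.4 CPM to 48.1, 51.4 and 49.0 CPM (1.22 ± 0.30, adjusted p = 0.011), a call lost without day 3 replicate 1 (adjusted p = 0.0662). Without that library 0 NF-kB targets were called higher, and 1 was without day 3 replicate 3 or any 1 day 12 library.

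Arginine and itaconate enzymes of activated macrophages were among the falls. Of 10 genes for itaconate, nitric oxide and arginine enzymes 4 fell and 0 rose. Arg1, which breaks down arginine, stood at 436, 503 and 609 CPM at day 3, 116, 45.9 and 90.1 CPM at day 6 and 35.2, 43.3 and 40.6 CPM at day 12 (-3.70 ± 0.65, adjusted p = 9.2e-04). Acod1, which makes itaconate, fell from 73.5 ± 7.8 to 3.72 ± 2.58 CPM (-4.31 ± 0.55), and Ass1, of arginine synthesis, from 55.6 ± 9.3 to 5.78 ± 3.09 CPM (-3.26 ± 0.65). The inducible nitric oxide synthase gene Nos2 fell by 3.31 ± 0.80, a call lost without day 3 replicate 3 (adjusted p = 0.114), day 12 replicate 1 (0.0552) or day 12 replicate 2 (0.0628). Of 19 complement genes 4 fell and 1 rose: the central component gene C3 went from 527 ± 39 to 92.2 ± 13.4 CPM (-2.52 ± 0.33) and Cfb, of the alternative pathway, from 49.2 ± 5.2 to 2.26 ± 1.87 CPM (-4.45 ± 0.63).

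Chemokine genes split. Of 20 CC and CXC chemokines 6 rose (Ccl2, Ccl4, Ccl7, Ccl8, Ccl12 and Cxcl14) and 5 fell (Ccl5, Ccl6, Ccl9, Cxcl2 and Cxcl16). The monocyte attractant Ccl2 was 29.4, 28.6 and 23.9 CPM at day 3 and 175, 161 and 155 CPM at day 12 (2.58 ± 0.67, adjusted p = 0.019), with no overlap. Its call was lost without each day 3 library (adjusted p 0.0736 to 0.0946) or day 12 replicate 1 (0.0515). Ccl12 rose from 10.9 ± 2.8 to 118 ± 26 CPM (3.43 ± 0.55) and Ccl8 from 4.58 ± 0.59 to 54.9 ± 27.3 CPM (3.58 ± 0.58), and these calls were kept in every alternative run. The chemokine rises numbered 2 without day 3 replicate 1 or 3 and 3 without any 1 day 12 library. Ccl6, which fell, went from 405 ± 57 to 185 ± 7 CPM (-1.13 ± 0.20). Immediate early genes, which answer stimulation or cell handling within minutes, rose in 6 of 23 with 1 fall. Fos rose from 284 ± 23 to 762 ± 74.8 CPM (1.42 ± 0.31), Fosb from 5.23 ± 2.25 to 38.5 ± 11.2 CPM (2.88 ± 0.51), Jun by 1.64 ± 0.31 and Zfp36, an RNA-decay factor gene that limits Tnf, by 1.37 ± 0.29. The phosphatase gene Dusp2 fell by 2.90 ± 0.80, a call lost without any 1 of the libraries except day 3 replicate 2 (adjusted p up to 0.108).

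Most glycolysis genes fell. Among 33 members of the glycolysis and hypoxia list 23 fell and 0 rose, with a median log2 fold change of -0.97, and their summed level went from 13470 to 14490 CPM at day 3 to 6816 to 7368 CPM at day 12. The enzymes that fell span the pathway, from Gpi1, Pfkl and Pfkp through Aldoa, Tpi1, Gapdh, Pgk1, Pgam1 and Eno1 to Pkm and Ldha, along with the glucose transporter gene Slc2a1 and the lactate exporter gene Slc16a3. Aldoa, the aldolase gene (chromosome 7, 126795234 to 126809108), stood at 2091, 2120 and 2231 CPM at day 3, 1361, 1272 and 1366 CPM at day 6 and 757, 880 and 850 CPM at day 12 (-1.37 ± 0.12, adjusted p = 3.3e-08), with no overlap between days and against 753 CPM on average at day 0. Gpi1, of the second step of glycolysis, went from 952 ± 105 to 385 ± 4.72 CPM (-1.30 ± 0.16). Hif1a, the oxygen-regulated transcription factor gene, fell from 713 ± 78 to 218 ± 31 CPM (-1.71 ± 0.20), and its target Vegfa, the vascular growth factor gene, from 21.8 ± 4.5 to 4.10 ± 0.97 CPM (-2.41 ± 0.45). Pfkfb3, which makes the activator of phosphofructokinase, fell from 159, 166 and 160 CPM to 76.4, 49.5 and 47.9 CPM (-1.48 ± 0.17).

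The core of the hypoxia response element is ACGTG, and Pfkfb3 is shown as a called member whose promoter holds it. It was chosen after its letters were seen. The line gives the 250 bases before its start (RefSeq, GRCm38.p6, chr2:11553930-11554179, minus strand), with the ACGTG at -60 in capitals.
Pfkfb3: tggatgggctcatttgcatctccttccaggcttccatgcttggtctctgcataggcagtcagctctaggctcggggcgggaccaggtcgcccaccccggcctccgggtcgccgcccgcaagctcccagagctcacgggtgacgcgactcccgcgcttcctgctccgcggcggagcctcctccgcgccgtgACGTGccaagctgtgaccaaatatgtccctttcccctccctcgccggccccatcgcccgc

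In the table, 30 of the 33 tested glycolysis and hypoxia genes had a promoter. Of these 15 held ACGTG on either strand, or 50%, against 16.6% of all 27025 promoters and 21.5% of 10618 promoters of tested genes. Of 31 nuclear genes of oxidative phosphorylation 1 rose (Atp5b) and 0 fell, or 3.23% called against 8.45% of all tested genes. The Atp5b call was lost with no filter and without any 1 library except day 12 replicate 1 (adjusted p 0.0756 to 0.321), while the 6 libraries alone gave 12 rises and 2 falls. Of 12 mitochondrially encoded ones 4 rose (mt-Nd4, mt-Nd5, mt-Nd6 and mt-Co1) and 0 fell, with a median of 0.79. The complex I subunit gene mt-Nd4 stood at 676, 744 and 563 CPM at day 3 and 1047, 1454 and 1345 CPM at day 12 (0.96 ± 0.20). Leaving out 1 library left 1 of these rises without day 3 replicate 3, where mt-Nd5 had an adjusted p of 0.0543, and 2 without day 3 replicate 1, day 12 replicate 2 or day 12 replicate 3.

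Part of the antioxidant, iron and heme genes fell. Of 24 NRF2, glutathione and pentose phosphate genes 11 fell and 0 rose (median -0.91). Of 23 members of the iron and heme list 9 fell and 1 (Hpgd) rose (median -0.54). Hmox1, the enzyme that breaks down heme (chromosome 8, 75093591 to 75100596), stood at 1621, 1621 and 1634 CPM at day 3, 612, 612 and 655 CPM at day 6 and 352, 441 and 379 CPM at day 12 (-2.06 ± 0.18, adjusted p = 3.2e-08). Its mean at day 0 was 404 CPM, so that the day 12 libraries lay near the level before co-culture. The ferritin heavy chain gene Fth1 fell from 21697, 26348 and 21338 CPM to 5100, 6950 and 6906 CPM (-1.87 ± 0.34). The heme transporter gene Slc48a1 (-1.44 ± 0.14) and the phagosomal metal transporter gene Slc11a1 (-1.39 ± 0.15) fell. So did the cystine importer gene Slc7a11 (-4.28 ± 0.79), the glutathione reductase gene Gsr (-2.45 ± 0.38) and the glutathione transferase gene Gstm1 (-1.37 ± 0.22). Spic, the transcription factor gene of heme-recycling macrophages, fell from 30.3 ± 6.55 to 4.49 ± 2.41 CPM (-2.75 ± 0.48). Hpgd, the 1 rise on the iron and heme list, encodes an enzyme that degrades prostaglandins. It rose from 3.51 ± 1.00 to 39.9 ± 3.97 CPM (3.5 ± 0.55). The iron exporter gene Slc40a1 fell by 1.30 ± 0.34, a call lost without day 3 replicate 1 or 3 or day 12 replicate 2 or 3 (adjusted p 0.0733 to 0.0904). The antioxidant response core, TGACNNNGC on either strand, was in 5 of 21 promoters of the NRF2 list (of 24 members), or 23.8%. It was in 10.1% of all promoters and 11.9% of promoters of tested genes.

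Part of the interferon response and antigen presentation genes fell. Of 35 type I interferon response genes 11 fell and 0 rose (median -0.59), and 33 of the 35 had a negative fold change. Irf7, the transcription factor that amplifies interferon, stood at 784, 936 and 962 CPM at day 3 and 212, 107 and 106 CPM at day 12 (-2.66 ± 0.38, adjusted p = 1.1e-04). Oasl1 (-1.54 ± 0.30), an oligoadenylate synthetase-like gene, Mx1 (-1.11 ± 0.25), an antiviral GTPase gene, and Xaf1 (-0.75 ± 0.17), a gene of interferon-linked cell death, fell. Day 12 replicate 1 had the highest level of the 3 day 12 libraries for Irf7, Oasl1 and Mx1, and Ifit3, at 160, 78.4 and 79.1 CPM there, did not pass (-0.64 ± 0.48, adjusted p = 0.49). Without day 3 replicate 1, day 12 replicate 2 or day 12 replicate 3 the number of interferon genes called lower was 4, and without day 3 replicate 3 it was 7. Over all fits with 1 library left out it ranged from 4 to 13.

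Of 15 MHC class II presentation genes 7 fell and 0 rose (median -0.96). The class II alpha chain gene H2-Aa stood at 163, 124 and 131 CPM at day 3, 174, 115 and 133 CPM at day 6 and 27.6, 38.6 and 22.8 CPM at day 12 (-2.23 ± 0.48, adjusted p = 0.0042). The invariant chain gene Cd74 was 489, 473 and 462 CPM, then 423, 324 and 351 CPM, then 98.2, 114 and 73.9 CPM (-2.31 ± 0.42). For H2-Aa the day 3 and day 6 libraries overlapped, and for both genes the day 12 libraries lay below all others. Ctss, the protease that trims the invariant chain, fell from 8765 ± 620 to 3621 ± 351 CPM (-1.28 ± 0.14) and the costimulatory gene Cd86 from 104 ± 6 to 43.5 ± 10.7 CPM (-1.25 ± 0.24). Of 20 MHC class I genes 6 fell, among them H2-D1, from 6588 ± 164 to 2668 ± 233 CPM (-1.30 ± 0.11), and H2-K1, from 5492 ± 149 to 2270 ± 160 CPM (-1.27 ± 0.11). The class I genes are close relatives, and reads that map to more than 1 place were not counted. The 3 members that rose, Calr (1.61 ± 0.19), Pdia3 and Canx, encode chaperones of the endoplasmic reticulum. Other chaperone genes of that compartment, Hspa5 (1.14 ± 0.17) and Sdf2l1 (1.75 ± 0.25), rose too, within 5 rises and 1 fall (Slc7a11) among 29 ATF4 and unfolded protein response genes. The serine and folate enzyme genes Psat1 (1.57 ± 0.27) and Shmt2 (1.13 ± 0.17) were the other rises, with Herpud1.

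**Figure D4:**
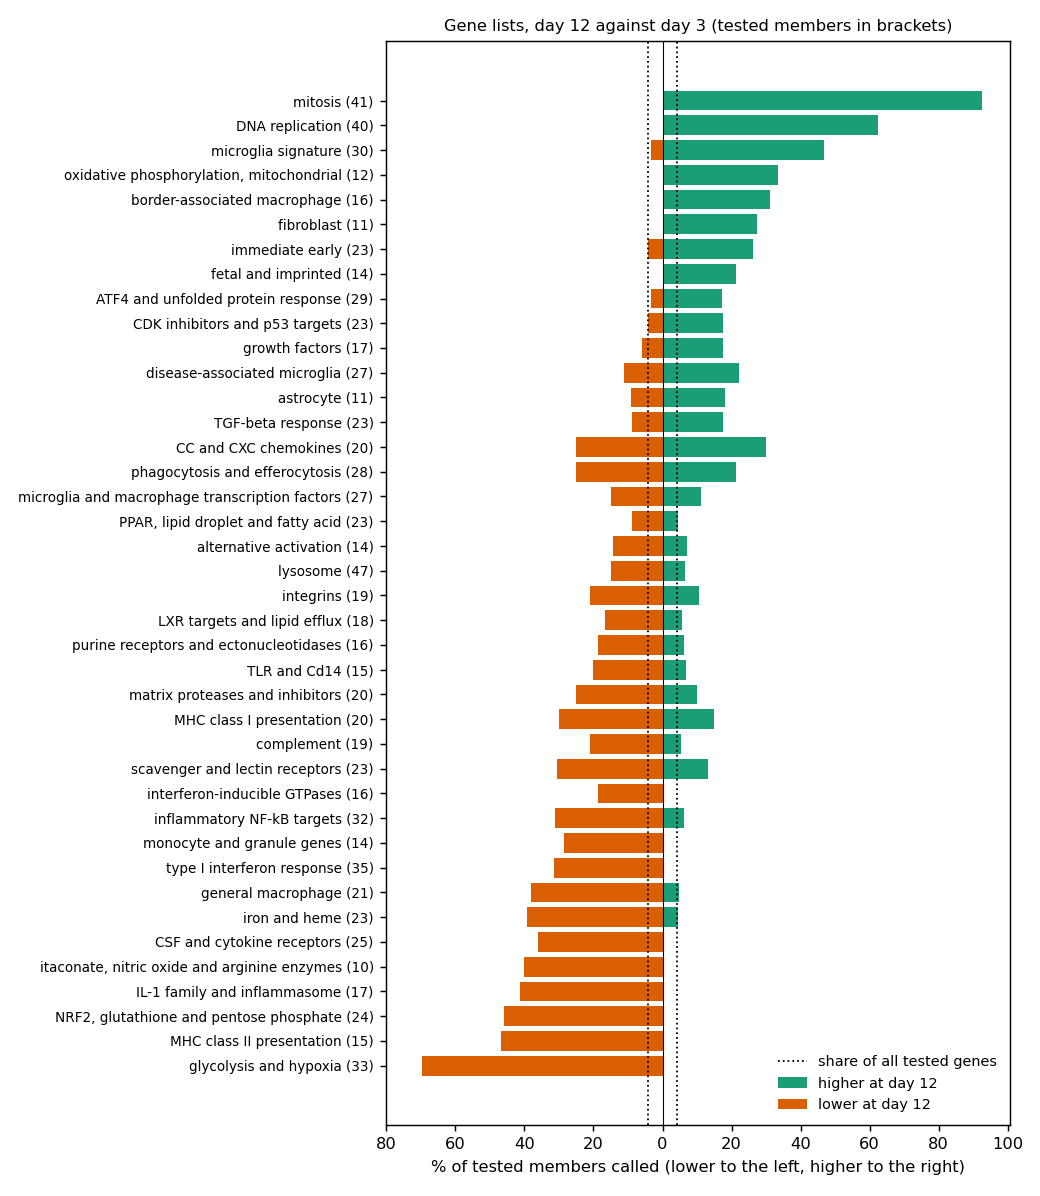
Share of the tested members of each gene list called higher (right) or lower (left) at day 12, for the lists with at least 10 tested members and at least 3 calls, with dotted lines at the shares of all tested genes (4.2% higher and 4.25% lower). Mitosis (38 of 41 higher) and glycolysis and hypoxia (23 of 33 lower) lie at the ends.

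Among surface receptor genes of macrophages more fell than rose. Of 21 general macrophage genes 8 fell and 1 rose (Mrc1), and of 25 receptors for colony-stimulating factors and cytokines 9 fell and 0 rose. The F4/80 gene Adgre1 fell from 2924 ± 307 to 1661 ± 100 CPM (-0.82 ± 0.14) and the lipopolysaccharide co-receptor gene Cd14 from 541, 742 and 768 CPM to 172, 198 and 202 CPM (-1.84 ± 0.41). Of 7 genes for Fc gamma receptors, which bind antibody, and related proteins 4 fell. They include Fcgr3 from 1473 ± 196 to 736 ± 97 CPM (-1.0 ± 0.15), Fcgr4 (-1.40 ± 0.21) and Fcgr1 (-0.87 ± 0.18). The Fc receptor-like gene Fcrls was the 1 that rose. Of 23 scavenger and lectin receptors 7 fell and 3 rose, and the rises numbered 1 without day 3 replicate 3. The falls were Marco and 6 clustered C-type lectin genes, among them Clec4e (Mincle), a sensor of dead cells and mycobacteria, from 399 ± 16 to 60.8 ± 8.6 CPM (-2.72 ± 0.40), Clec4a1 from 727 ± 32 to 168 ± 22 CPM (-2.12 ± 0.21) and Clec4a3 (-2.29 ± 0.33). Csf2rb, the shared chain of the GM-CSF, IL-3 and IL-5 receptors, fell from 698 ± 28 to 313 ± 9 CPM (-1.16 ± 0.16), Il2rg, the common gamma chain, from 363 ± 12 to 137 ± 21 CPM (-1.41 ± 0.18), the TNF receptor gene Tnfrsf1b by 1.08 ± 0.17 and the interferon gamma receptor gene Ifngr1 by 0.82 ± 0.14. Of 19 integrin genes 4 fell and 2 rose, Itgal falling by 1.70 ± 0.24, Itgb2 by 1.03 ± 0.17 and Itgb7 by 3.10 ± 0.64, whereas the laminin receptor subunit gene Itga6 rose from 136 ± 13 to 266 ± 1.57 CPM (0.96 ± 0.13).

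Of 14 monocyte and granule genes 4 fell and 0 rose. Thbs1, the matrix protein thrombospondin 1 (chromosome 2, 118111876 to 118127133), stood at 1769, 1849 and 2224 CPM at day 3, 1050, 729 and 726 CPM at day 6 and 297, 283 and 277 CPM at day 12 (-2.77 ± 0.24, adjusted p = 4.5e-08). The other falls included Itgal and Ly6c2, a monocyte surface gene with close relatives, from 13.9 ± 2.1 to 0.694 ± 0.602 CPM (-4.30 ± 1.15). The Ly6c2 call was lost without each of the 6 libraries in turn (adjusted p 0.052 to 0.08), and the list had 2 falls in each of these fits. Ccr2, the monocyte chemokine receptor gene, was 64.4 ± 6.0 and 44.9 ± 1.36 CPM (-0.52 ± 0.39, adjusted p = 0.50).

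Lysosomal and disease-associated microglia genes were divided. Of 47 lysosome genes 3 rose, Ctsb and Ctsd among them, and 7 fell, with a median of -0.11. The protease gene Ctsd rose from 10722 ± 837 to 19686 ± 990 CPM (0.88 ± 0.15), while Psap, which encodes activators of sphingolipid breakdown, fell from 12470 ± 707 to 5220 ± 427 CPM (-1.26 ± 0.11, adjusted p = 3.1e-08) and the protease gene Ctsl from 1458 ± 41 to 541 ± 70 CPM (-1.43 ± 0.14). Of 27 disease-associated microglia genes, which rise in microglia around plaques and lesions, 6 rose and 3 fell, and without day 3 replicate 2 the rises numbered 2. The matricellular gene Spp1 was 432, 325 and 511 CPM and then 1575, 1371 and 1193 CPM (1.71 ± 0.39, adjusted p = 0.0083, or 0.0579 without day 3 replicate 2), and the tetraspanin gene Cd9 rose from 153 ± 11 to 289 ± 28 CPM (0.92 ± 0.17). Gpnmb (-0.14 ± 0.16), Clec7a (0.00 ± 0.33) and Itgax (0.09 ± 0.33), of the same list, did not pass. Of 18 LXR target and lipid efflux genes 3 fell and 1 rose (Fasn, a call lost without any 1 day 3 library or day 12 replicate 2). Among 24 cholesterol synthesis genes 2 rose (Cyp51 and Stard4) and 0 fell, or 0 to 1 rose with 1 library left out. These 2 calls are 8.33% of the list, near the 8.45% called among all tested genes. The phospholipid transfer gene Pltp fell from 3060 ± 435 to 707 ± 70 CPM (-2.11 ± 0.23) and the sterol sensor gene Nr1h3 from 78.2 ± 5.1 to 14.6 ± 4.7 CPM (-2.42 ± 0.44), whereas the cholesterol exporter gene Abca1 (-0.23 ± 0.15) and the cholesterol synthesis gene Hmgcs1 (0.12 ± 0.20) did not pass. Ribosomal protein genes (31) and heat shock genes (11) had 0 calls in either direction. With the 6 libraries alone, 7 ribosomal and 4 heat shock genes were called higher. With no scaling factors 2 heat shock genes were, and with the replicate block also 2.

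Genes of other cell types were measured as well. Summed levels at day 3 and day 12 were 71.3 to 85.4 and 30.4 to 33.8 CPM for 19 neuron genes, 167 to 172 and 121 to 149 CPM for 12 astrocyte genes, 173 to 204 and 77.2 to 86.2 CPM for 10 neutrophil genes, and 170 to 191 and 180 to 246 CPM for 12 oligodendrocyte genes. For 10 neural progenitor genes they were 671 to 796 and 309 to 363 CPM, most of it from the filament gene Vim, which macrophages also express and which fell from 623 ± 72.4 to 243 ± 26.6 CPM (-1.36 ± 0.21). Of the 8 tested members of that list 2 fell (Vim and Notch1) and 1 rose (Nes, a call lost without any 1 library except day 12 replicate 2). At day 0, without co-culture, the sums were 1.93 to 3.78 CPM for neuron genes and 87.5 to 108 CPM for astrocyte genes. They were 150.5 to 155.7 CPM for neutrophil, 135.5 to 139.8 CPM for oligodendrocyte and 545.8 to 640.6 CPM for neural progenitor genes. The neuronal tubulin gene Tubb3 was 8.75, 11.5 and 15.9 CPM at day 3 and 4.11, 4.07 and 4.05 CPM at day 12 (-1.56 ± 0.51, adjusted p = 0.058), and 0 of 16 tested neuron genes were called, with a median of -1.60 and 14 of 16 negative. Neuron genes called lower numbered 7 in the fit on the 6 libraries alone, 4 with DESeq2 and 3 without day 12 replicate 3. Gfap, the astrocyte filament gene, rose from 1.09, 2.87 and 2.12 CPM to 15.5, 16.6 and 17.6 CPM (3.02 ± 0.56). Clu rose and Aldoc fell, the other calls among 11 astrocyte genes. The median log2 fold change of these 11 was 0.75, with 9 positive and 2 negative, although the summed level was lower at day 12. The endothelial genes Pecam1 (-3.22 ± 0.58), from 41.8 ± 4.35 to 4.47 ± 1.17 CPM, and Vwf (-2.07 ± 0.43) fell, and the other 6 tested endothelial genes were not called. The summed level of 10 endothelial genes was 55.9 to 78.7 CPM at day 0, 50.4 to 57.6 at day 3 and 9.7 to 14.7 at day 12. Most of the day 3 sum came from Pecam1, and the median log2 fold change of the 8 tested endothelial genes was -0.26. Of the 2 neutrophil genes that could be tested both fell, the protease gene Mmp8 (-3.77 ± 0.68) and Csf3r (-0.99 ± 0.22). The part of these cells in the changes above was not tested.

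Day 6 lay between the 2 days for most of these groups. Against day 3, 127 genes (0.847%) were called at day 6, 62 higher (0.413%) and 65 lower (0.433%), and against day 6, 78 genes (0.52%) were called at day 12, 22 higher (0.147%) and 56 lower (0.373%). These steps share the day 6 libraries, and each also shares a group with the whole comparison. The median log2 fold change of the mitosis genes was 1.42 in the first step and 1.31 in the second, and that of the DNA replication genes 0.78 and 0.85. Glycolysis and hypoxia genes had medians of -0.46 and -0.50. NRF2 genes had medians of -0.66 and -0.26, with Hmox1, G6pdx, Gstm1 and Fth1 called lower in the first step and 0 of the 24 in the second. For MHC class II genes it was the reverse, with medians of -0.24 and -0.65, 0 of 15 called in the first step and H2-Aa, Cd74 and Ctss called lower in the second. Microglia signature genes had medians of 0.62 and 0.39. Cx3cr1, Fcrls, Slco2b1, Sparc, Tgfbr1, Bhlhe41 and Rtn4rl1 were among those called higher in the first step, and Golm1 and Ltc4s in the second. Whether the 2 steps differ for a gene or list was not tested.

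The last comparison asks whether bone marrow-derived and iPSC-derived macrophages changed alike from day 3 to day 12. The difference between their log2 changes (bone marrow-derived minus iPSC-derived) was called for 478 of 15000 genes (3.19%), 243 with a positive difference (1.62%) and 235 with a negative one (1.57%). The number depended on single libraries: leaving out bone marrow-derived replicate 2 or 3 of day 3 gave 292 or 295, leaving out replicate 3 of day 12 gave 311, and leaving out iPSC-derived replicate 1, 2 or 3 of day 12 gave 308, 314 or 848.

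The difference was positive for many cell division and microglial genes and negative for many glycolysis genes. Of the 41 mitosis genes 20 had a called positive difference, and the list's median change was 2.75 in bone marrow-derived and 0.29 in iPSC-derived cells. Mki67 went from 16.2 ± 3.15 to 140 ± 24 CPM in bone marrow-derived cells and from 38.8 ± 9.9 to 52.9 ± 30.3 CPM in iPSC-derived cells (difference 2.66 ± 0.49 SE, adjusted p = 0.0025). Of 30 microglia signature genes 11 had a positive difference and 0 a negative one. Cx3cr1 went from 174 ± 38 to 1166 ± 77 CPM in bone marrow-derived cells, while the iPSC-derived libraries stood at 1253 ± 487 and 910 ± 156 CPM (difference 3.20 ± 0.53, adjusted p = 0.0018). The difference was positive as well for Rtn4rl1 (5.28 ± 0.67) and Plxdc2 (3.80 ± 0.46), a plexin domain gene, which stood at 4.19 ± 1.02 and 40.6 ± 6.4 CPM against 450 ± 138 and 313 ± 19 CPM. For these genes the iPSC-derived cells had the higher level at day 3 already, and the level at day 3 was not adjusted for.

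Of 33 glycolysis and hypoxia genes 17 had a negative difference and 0 a positive one, with median changes of -0.97 in bone marrow-derived and 0.26 in iPSC-derived cells. Aldoa fell in bone marrow-derived cells, from 2147 ± 74 to 829 ± 64 CPM, and stood at 1004 ± 115 and 1164 ± 151 CPM in iPSC-derived cells (difference -1.59 ± 0.17, adjusted p = 2.5e-06). Sod2 (-2.46 ± 0.26), the endosome recycling gene Ehd1 (-2.20 ± 0.22), Clec4a1 (-3.10 ± 0.30), the dipeptidase gene Dpep2 (-2.99 ± 0.28) and C5ar1 (-2.37 ± 0.26), the receptor for the complement fragment C5a, had negative differences as well. Ehd1 and Clec4a1 fell in bone marrow-derived cells and rose in iPSC-derived cells (log2 changes of 1.04 and 0.99), where 1334 genes were called from day 3 to day 12 (8.89%), 611 higher (4.07%) and 723 lower (4.82%). Il1b had the largest difference of the named genes, at -7.52 ± 1.30 (adjusted p = 0.0030), with 67.2 ± 89.6 CPM at day 12 in the iPSC-derived libraries, which varied widely. Differences at the lysosome and among disease-associated genes were mostly positive, 6 of 47 and 0 negative for the lysosome list and 10 of 27 and 2 negative for the disease-associated list. Itgax, an integrin of activated microglia, was 23.2 ± 6.3 and 24.7 ± 6.1 CPM in bone marrow-derived cells and fell from 48.4 ± 7.6 to 2.44 ± 1.21 CPM in iPSC-derived cells (4.41 ± 0.51), and Ctsd rose in the first and fell in the second (1.65 ± 0.21). Tceal9, a transcription elongation factor-like gene, had a difference of 2.35 ± 0.29, and its change in bone marrow-derived cells was not called (0.40, adjusted p = 0.26). Type I interferon genes had 0 called differences among 35.

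**Figure D5:**
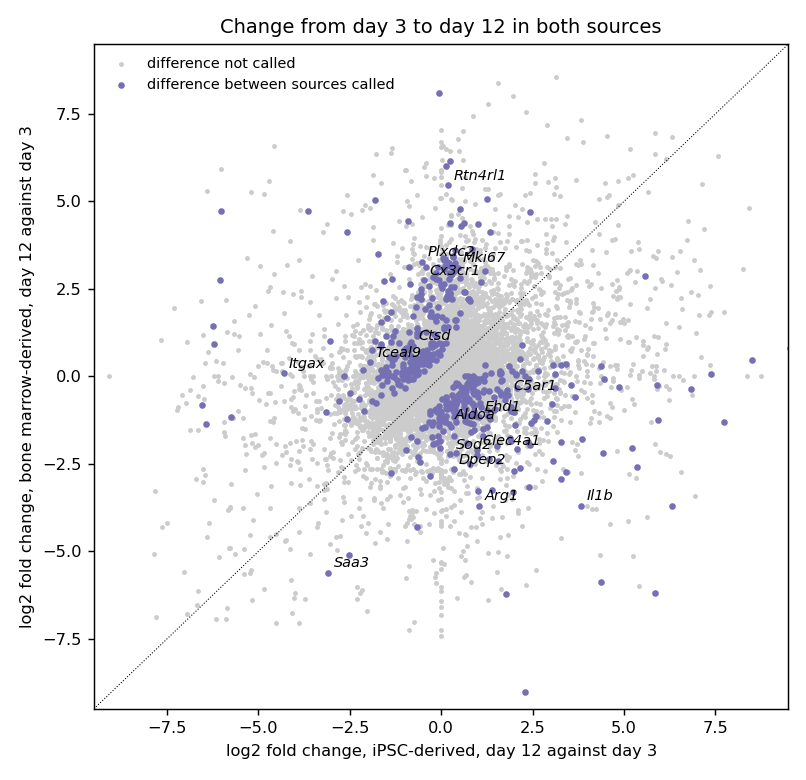
Log2 fold change of day 12 against day 3 in bone marrow-derived (vertical) and iPSC-derived (horizontal) macrophages for each tested gene, with the 478 genes whose difference was called in colour and a dotted line of equal change. Mki67 and Cx3cr1 lie above the line and Aldoa, Sod2 and Il1b below it.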

How the data were processed

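RNA of 24 samples was sequenced as paired reads with the SMART-seq v2 method, per the labels' protocols. Reads were aligned with STAR, per the submitters' processing notes, and the deposited values are whole fragment counts per gene made with featureCounts 1.5.0-p1 on the GENCODE M9 annotation, without strand and without reads that map to more than 1 place, per the file headers. Close relatives, overlapping and antisense genes can therefore not be told apart fully. The table has 47643 genes, of which 419 had no symbol (0.0635% of counts).

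One edgeR 4.0.16 quasi-likelihood fit (R 4.3.3, robust, TMM scaling) covered all 24 libraries and the 15000 genes left by a minimum count of 10 and a minimum total count of 15, so the 8 groups share 1 estimate of the spread. Adjusted p-values (Benjamini-Hochberg) run over all 15000 genes, and the SE is the log2 fold change divided by the root of F. Named genes are, per direction, the 12 largest called changes without overlap and averaging 20 CPM or more where they are higher, 44 fixed genes, up to 4 members per list with the lowest adjusted p plus the first called member against the list's direction, and 6 genes per direction for the difference between sources. Predicted genes were left out of the rule. The other members named beside their list's count were chosen after their values were seen. The members and lists were chosen with earlier results of these data known. Tested on simulated data for day 12 against day 3 (14424 genes), the fit recovered 38% of 100 true 2-fold changes and 77% of 100 true 4-fold ones. Of its calls 1.71% were false. The simulated counts used the spread that the fit itself had estimated. Changed genes were drawn without those lowest at day 3, so recovery for such genes was not tested. The alternatives were RLE scaling, no scaling, no filter or another, no robust estimation, a replicate block, smaller fits, DESeq2 1.42.0 and each library left out. Some genes that meet the rule are not reported here.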

Additional observations from a re-analysis of the deposited data

Results flagged for a closer look

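Each result here differed between bone marrow-derived and iPSC-derived macrophages by the test of the difference itself, and values are bone marrow-derived minus iPSC-derived log2 changes from day 3 to day 12. In all, 478 genes were called (edgeR's quasi-likelihood test, adjusted p below 0.05). Positive differences were found for the microglial genes Cx3cr1 (3.20), Rtn4rl1 (5.28), Gpr34 (3.20), P2ry12 (1.29) and Tgfbr1 (1.18). The proliferation genes Mki67 (2.66) and Top2a (2.29) and the TGF-beta-induced gene Pmepa1 (2.25) had positive differences too. So did Itgax (4.41), Clec7a (2.67), Lpl (1.75), Ctsd (1.65), Gpnmb (1.34), Igf1 (1.25) and Trem2 (1.09), of the disease-associated list, with Plxdc2 (3.80) and Tceal9 (2.35). Itgax, Clec7a, Gpnmb, Trem2, Gpr34 and Tceal9 were not called for bone marrow-derived day 12 against day 3 in the main fit, which holds both sources. Lpl and Igf1 were called there (edgeR, adjusted p = 0.0405 and 0.0416), but Lpl was lost without each of the 6 libraries in turn. Igf1 was lost without any 1 of them except day 3 replicate 1. Fitted on the bone marrow-derived libraries alone, edgeR's test called Trem2 (adjusted p = 0.0027) and Gpr34 (1.86e-07) higher.

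Negative differences were found for Il1b (-7.52), Arg1 (-4.73), Acod1 (-3.65), Clec4a1 (-3.10), Dpep2 (-2.99), Sod2 (-2.46), C5ar1 (-2.37), Ehd1 (-2.20), Hmox1 (-2.02), Aldoa (-1.59) and C1qa (-1.27). C5ar1 and C1qa were not called for bone marrow-derived day 12 against day 3 in the main fit. C5ar1 was called lower by edgeR's test on the bone marrow-derived libraries alone (adjusted p = 0.000533). The calls of Top2a, Pmepa1, Arg1, Acod1, P2ry12, Trem2 and Gpr34 were lost when at least 1 of the 12 libraries was left out (P2ry12 in 10 of the 12 such fits), and those of Cx3cr1, Mki67 and Il1b were not. P2ry12 was also lost with no scaling factors and with no robust estimation, and P2ry12, Gpr34 and Trem2 with only the groups compared.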

How the results depend on the processing

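Of 205 named genes 185 were called, 145 of them under every alternative, and 0 called genes changed sign. Of 75 named differences between sources, 48 were called under every alternative. Leaving out 1 of the 6 libraries gave 790 to 960 genes (384 to 474 higher, 406 to 486 lower), and the difference between sources 292 to 848 (133 to 432 positive, 138 to 416 negative) with 1 of 12 left out. With the 6 compared libraries alone 2751 genes were called (1396 higher, 1355 lower) and with the 12 bone marrow-derived ones 2795 (1364 and 1431). The cause was not tested. For the difference between sources, no filter gave 947 genes (481 positive, 466 negative) and DESeq2 841 (438 and 403). DESeq2 lost 0 of the called named genes.

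In all, 5 uncalled genes changed sign: Clec7a (-0.03438 with no filter, -0.003432 with the replicate block, -0.08724 to 0.07688 leaving out 1 library), C1qa (-0.04127 to 0.2442), Itgax (-0.09038 to 0.3335), Sall1 (0.01831 with no scaling factors, -0.6285 to 0.807) and Siglech (-0.2709 with the replicate block, -4.629 to 1.884). The cause was not tested.

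Replicate numbers are shared by day 3 and day 12, and the values showed no pairing by number. Deviations of same-numbered libraries correlated at 0.00938, 0.0132 and -0.009, and not every sample correlated best with its own number. This cannot show whether same-numbered samples shared an origin. A replicate block gave 1376 genes (678 higher, 698 lower), lost 1 called named gene, and gave 506 for the difference between sources, where it lost 6, Arg1, P2ry12 and Gpr34 among them. With the block Mertk was called lower (adjusted p = 0.0253 in edgeR).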
